A study of Mus musculus with 6 samples.

Results

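Pairs of neighbouring protein-coding genes that lie almost against each other on mouse chromosomes 1 to 19 were examined for nucleosome-sized DNA in sperm. Coding genes were sorted by start, and a pair was taken when the genes did not overlap and the gap between them was 1 to 1000 bp. Each region was the gap plus 500 bp on both sides. This gave 1915 regions, 10.2% of the 18699 adjacent, non-overlapping pairs, with 3471 genes in all. Of these genes, 359 belonged to a gap on either side, and 10 neighbouring regions overlapped each other, so the regions are not fully independent. The gap was overlapped by another coding gene in 6 regions and by a non-coding gene in 74.

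A gap this short can stand in 3 arrangements. In a head-to-head pair both genes start at the gap and are read away from it, and one stretch of DNA often acts as a promoter in both directions. In a head-to-tail pair the finish of one gene meets the start of the next, and in a tail-to-tail pair 2 finishes meet and no promoter is there. In sperm most histones are replaced by protamines, and the nucleosomes that stay are known to be found mostly at promoters rich in CpG dinucleotides.

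Micrococcal nuclease (MNase) cuts DNA that is not held in nucleosomes, so the mononucleosome-sized DNA that remains marks places where histones are still bound. Libraries were made from sperm of the epididymis and vas deferens, 4 from wild-type C57BL6 mice (WT) and 2 from mutant mice (K49A), in which one amino acid of protamine 1 is exchanged. All libraries were from sperm treated with DNase I and then digested with MNase in 2 rounds, and DNA of mononucleosome size was cut from a gel. The submitters call them biological replicates. Zygosity, age and the number of animals behind a library are not stated, and p-values measure only the spread between these libraries. The data were one list of enriched regions (peaks) per library, with no read counts, so the depth is unknown. The WT lists held 11313, 20458, 22237 and 27903 peaks and the K49A lists 700 and 1017, so list length differed between the genotypes for any set of regions. Peaks of DNA do not measure expression, and the purity of the sperm cannot be checked from them. A peak from many sperm also cannot tell few cells with a firmly held nucleosome from many cells with a loose one.

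The sequences of 6 head-to-head gaps are shown first, because CpG content differed between gaps with and without peaks. They come from RefSeq (GRCm38.p6), are read 5′ to 3′ and hold the gap alone, with every CG in capitals. The first 3 rank highest by peak strength among gaps of 60 to 250 bp with a peak in every WT library and a complete sequence. They are the minus strand of chr11:115419920-115420093 (174 bp, 14 CG), the plus strand of chr9:46012691-46012819 (129 bp, 22 CG) and the plus strand of chr13:69534237-69534314 (78 bp, 19 CG). Atp5h encodes a subunit of the mitochondrial ATP synthase and Sik3 a salt-inducible kinase.
Atp5h/Kctd2: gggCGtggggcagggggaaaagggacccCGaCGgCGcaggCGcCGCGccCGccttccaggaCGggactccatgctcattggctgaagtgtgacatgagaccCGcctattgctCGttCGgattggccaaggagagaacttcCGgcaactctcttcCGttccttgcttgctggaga
Pafah1b2/Sik3: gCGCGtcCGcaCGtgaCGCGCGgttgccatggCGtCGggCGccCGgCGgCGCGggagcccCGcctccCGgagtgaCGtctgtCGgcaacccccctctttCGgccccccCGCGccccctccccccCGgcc
Tent4a/A930018O16Rik: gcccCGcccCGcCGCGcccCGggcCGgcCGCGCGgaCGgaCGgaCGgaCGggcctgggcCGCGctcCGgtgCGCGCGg

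The other 3 had no peak in any library and a gap close to 150 bp. They are the plus strands of chr11:101551956-101552106 (151 bp, 7 CG), chr1:87573871-87574026 (156 bp, 0 CG) and chr2:122298741-122298899 (159 bp, 8 CG). Brca1 encodes a DNA repair protein and Nbr1 an autophagy receptor, Neu2 encodes a sialidase, and Duox2 and Duoxa2 encode an oxidase of the thyroid and its maturation factor.
Brca1/Nbr1: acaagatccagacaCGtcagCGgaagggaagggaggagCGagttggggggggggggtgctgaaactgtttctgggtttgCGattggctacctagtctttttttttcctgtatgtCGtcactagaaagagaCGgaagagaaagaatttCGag
Ngef/Neu2: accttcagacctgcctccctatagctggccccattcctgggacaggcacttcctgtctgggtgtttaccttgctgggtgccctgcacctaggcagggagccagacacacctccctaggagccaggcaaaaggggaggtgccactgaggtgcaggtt
Duox2/Duoxa2: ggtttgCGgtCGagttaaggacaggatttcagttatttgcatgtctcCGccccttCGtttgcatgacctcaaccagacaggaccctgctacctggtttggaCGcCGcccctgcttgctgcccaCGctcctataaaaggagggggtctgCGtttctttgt

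GC content was 63.2, 81.4 and 91.0% in the first set and 50.3, 60.9 and 54.7% in the other. Head-to-head gaps of 60 to 250 bp with a complete sequence numbered 203. The 57 of them with a peak in all 4 WT libraries had a median of 10.9 CG per 100 bp (range 1.84 to 24.4), and the 30 with no peak in any library had 5.29 (range 0 to 14.5). The ranges overlapped.

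A region was counted as called in a library when a peak of that library overlapped it by at least 1 bp. WT 1 to WT 4 called 362, 650, 705 and 761 of the 1915 regions, or 18.9, 33.9, 36.8 and 39.7%. K49A 1 called 4 regions, or 0.209% (95% exact binomial interval 0.0569 to 0.534%), and K49A 2 called 3, or 0.157% (0.0323 to 0.457%). These intervals cover counting error only. With the same windows, 500 bp either side of the facing gene ends, the percentages over all 18699 pairs were 23.8, 34.3, 37.1 and 40.2% in WT 1 to WT 4 and 0.283 and 0.235% in K49A 1 and 2. The share in WT was 32.3 ± 9.27% (SD, n = 4) and that in K49A 0.183 ± 0.0369% (SD, n = 2). The lowest WT share was far above the higher K49A share (exact permutation test over the 15 splits, two-sided p = 0.1333, which is the lowest value 4 against 2 libraries allow, adjusted p = 0.158 over 13 tests). Between libraries with like file names the shares were 18.9 and 0.209% (WT 1, K49A 1) and 39.7 and 0.157% (WT 4, K49A 2).

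List length moved with this difference. When every list was reduced to its 700 strongest peaks, the number in the shortest list, WT 1 to WT 4 called 23, 16, 12 and 27 of the regions and K49A 1 and 2 called 4 and 3. These counts are 1.20, 0.84, 0.63 and 1.41% of the regions in WT and 0.21 and 0.16% in K49A. Among pairs with a gap above 1000 bp the shares were 2.04, 1.56, 1.63 and 1.81% in WT and 0.29 and 0.17% in K49A. The groups thus still did not overlap, at short gaps as at wide ones. The difference at short gaps fell to 0.836 percentage points from 32.2 (exact permutation test, two-sided p = 0.1333). Peaks that touched a short-gap region made up 3.11 ± 0.227% of a WT list (SD, n = 4) and 0.482 ± 0.126% of a K49A list (SD, n = 2), again without overlap (exact permutation test, two-sided p = 0.1333). In each K49A list this share rests on 4 peaks. The same share for windows at wide gaps was not measured. Of the 661913 bp inside the gaps, WT peaks covered 3.43, 8.88, 10.5 and 9.60%. K49A peaks covered 54 bp (0.00816%) and 0 bp.

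As a whole, the short gaps held no surplus of peaks over wider ones. The share called was lower than among the 16784 pairs with a gap above 1000 bp in 6 of 6 libraries. The difference, short minus wide, was -5.47 percentage points in WT 1 and between -0.47 and -0.33 in the other WT libraries (exact sign-flip permutation test, two-sided p = 0.0312, adjusted p = 0.135). In K49A 1 and 2 the difference was -0.083 and -0.088 points, resting on 4 and 3 short-gap regions called. The sign-flip p also needs both of these to be negative. Without WT 1 the mean difference was -0.28 in place of -1.15 percentage points, so that 1 library carries most of it. Windows at wide gaps also covered more DNA than a short-gap region, in which they overlap or meet. The direction of the mean turned to 1.68 when the gaps were limited to 500 bp and to 0.53 when the midpoint of a peak had to lie in the region. The ratio of the short-gap to the wide-gap share averaged -0.10 ± 0.18 over the 4 WT libraries and -0.56 ± 0.11 over the 2 K49A libraries on the log2 scale (mean ± SD), with no overlap (exact permutation test, two-sided p = 0.1333). The K49A ratios rest on 4 and 3 short-gap regions called, against 49 and 41 wide-gap pairs, so single calls weigh heavily in them. With 700 peaks a list the WT minus K49A difference in this ratio turned from 0.46 to -0.54.

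The average hid a large contrast between the 3 arrangements. The strand of both genes could be taken from the RefSeq promoter table for 1364 regions, of which 529 were head-to-head, 432 head-to-tail and 403 tail-to-tail. The other 551, among them all 21 on chromosome 18, are of unknown orientation here. In head-to-head regions WT 1 to WT 4 had a peak in 39.3, 64.3, 70.1 and 74.1%. In head-to-tail regions the shares were 16.7, 27.3, 32.9 and 36.1%. In tail-to-tail regions they were 0.993, 3.47, 3.23 and 4.22%. Within every WT library the order of the 3 arrangements was the same. Regions of unknown orientation had 14.2, 32.3, 32.5 and 35.6%.

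**Figure D1:**
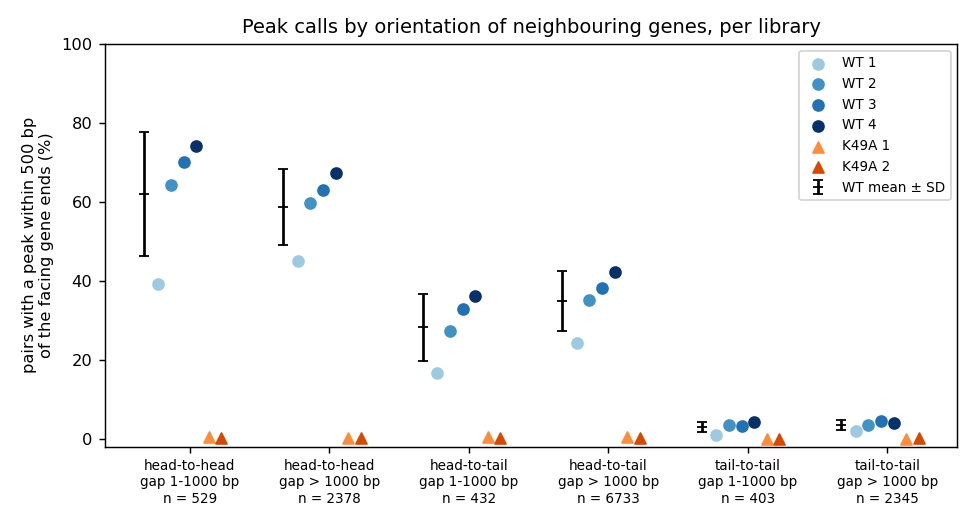
Percentage of gene pairs with a peak within 500 bp of the facing gene ends, for each arrangement and for gaps of 1 to 1000 bp and above 1000 bp. Each point is a library, and bars give the WT mean ± SD (n = 4). WT values for short gaps average 62.0% in head-to-head, 28.2% in head-to-tail and 2.98% in tail-to-tail pairs, and both K49A libraries stay under 0.5% throughout.

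The difference between head-to-head and tail-to-tail regions was 38.3, 60.8, 66.9 and 69.9 percentage points in WT 1 to WT 4 and 0.378 and 0.189 in K49A 1 and 2, positive in 6 of 6 libraries (exact sign-flip permutation test, two-sided p = 0.0312, the smallest it can give, adjusted p = 0.135). Against head-to-tail regions the head-to-head surplus was 22.7, 37.0, 37.3 and 38.0 points in the WT libraries and -0.08 and -0.04 in K49A (exact sign-flip permutation test, two-sided p = 0.125). The K49A values rest on 2 and 1 head-to-head and on 2 and 1 head-to-tail regions called, and on 0 tail-to-tail regions in both.

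In every WT library the same order of arrangements held for wide gaps, so it is not a property of short gaps alone. At gaps above 1000 bp, WT 1 to WT 4 called 45.1, 59.7, 62.9 and 67.3% of head-to-head pairs. They called 24.3, 35.2, 38.1 and 42.2% of head-to-tail and 1.88, 3.50, 4.56 and 4.09% of tail-to-tail pairs. Over all pairs of each arrangement, head-to-head pairs had 44, 60.5, 64.2 and 68.5% called in WT 1 to WT 4, head-to-tail pairs 23.9, 34.7, 37.8 and 41.8%, and tail-to-tail pairs 1.75, 3.49, 4.37 and 4.11%. In K49A 1 and 2 these shares were 0.31 and 0.275%, 0.405 and 0.209%, and 0.0364 and 0.146%. A single gene start at a wide gap had a peak within 500 bp in 25.2, 36.4, 39.5 and 43.4% of cases in WT 1 to WT 4, and a single gene finish in 0.754, 1.69, 1.94 and 2.11%. For head-to-head pairs the difference in share called between short and wide gaps, short minus wide, was 4.60, 7.22 and 6.82 points in WT 2 to WT 4 and -5.76 points in WT 1 (exact sign-flip permutation test over 6 libraries, two-sided p = 0.344). For head-to-tail pairs the short minus wide difference was -7.66, -7.86, -5.23 and -6.04 points in WT 1 to WT 4 and 0.06 and 0.02 points in K49A (exact sign-flip permutation test, two-sided p = 0.125). In tail-to-tail pairs the difference lay between -1.34 and 0.12 points in WT, with no single direction.

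Gap length went with arrangement. The median gap was 101 bp in head-to-head, 449 bp in head-to-tail and 381 bp in tail-to-tail regions. Among head-to-head pairs with a gap of 1 to 100 bp (264 pairs), WT 1 to WT 4 had a peak in 40.5, 64.4, 73.1 and 76.5%. At 501 to 1000 bp (41 pairs) the shares were 39.0, 56.1, 61.0 and 68.3%, and at 2001 to 5000 bp (159 pairs) 33.96, 50.3, 54.1 and 59.7%. Gaps of 10001 to 50000 bp (1029 pairs) had 42.5, 57.1, 59.6 and 64.5%, above the class of 2001 to 5000 bp in every WT library and in WT 1 also above the narrowest class. The shares thus had no single direction with gap length.

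**Figure D2:**
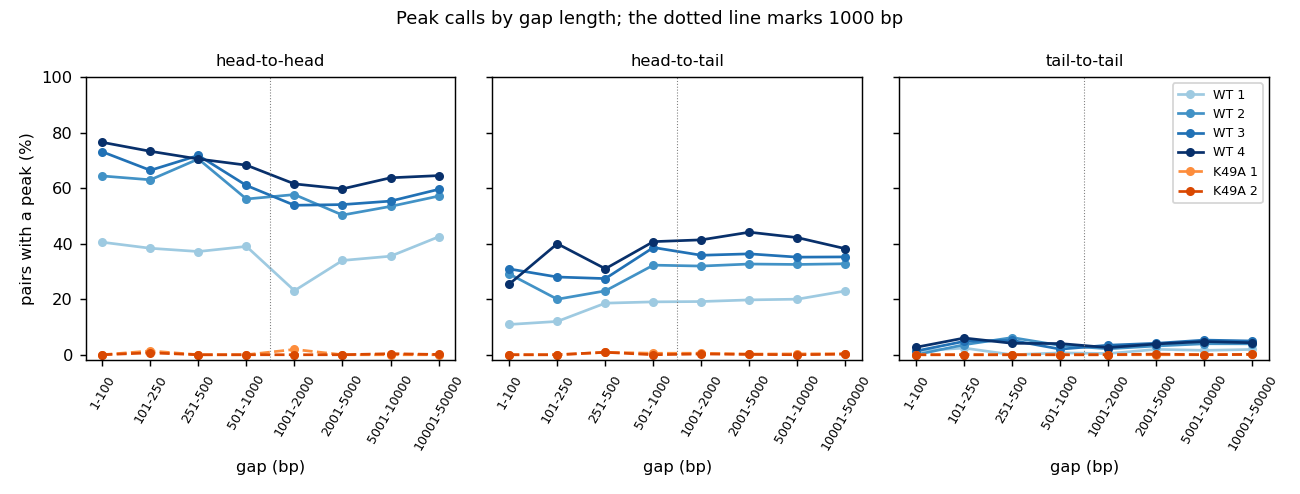
Percentage of pairs with a peak (vertical axis) in classes of gap length in bp (horizontal axis) for each arrangement, with a line for each library. In head-to-head pairs of WT 4 the share is 76.5% at 1 to 100 bp 59.7% at 2001 to 5000 bp and 64.5% at 10001 to 50000 bp, while tail-to-tail pairs stay low at all lengths.

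The place of the peaks followed the gene starts. At the centre of head-to-head gaps a peak covered 15.9, 37.8, 42.7 and 49.3% of regions in WT 1 to WT 4. At 1000 bp to the left it covered 1.70, 5.29, 5.10 and 2.84%, and at 1000 bp to the right 2.08, 6.62, 6.81 and 4.91%. With head-to-tail regions turned so that the gene start lies on the right, coverage was highest 360 to 440 bp to the right of the gap centre, at 11.1, 16.0, 19.9 and 22.2%. At 500 bp on the other side, towards the gene finish, it was 1.39, 2.78, 2.31 and 2.31%. In tail-to-tail regions the gap centre was covered in 0, 0.744, 0.496 and 0.248%.

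**Figure D3:**
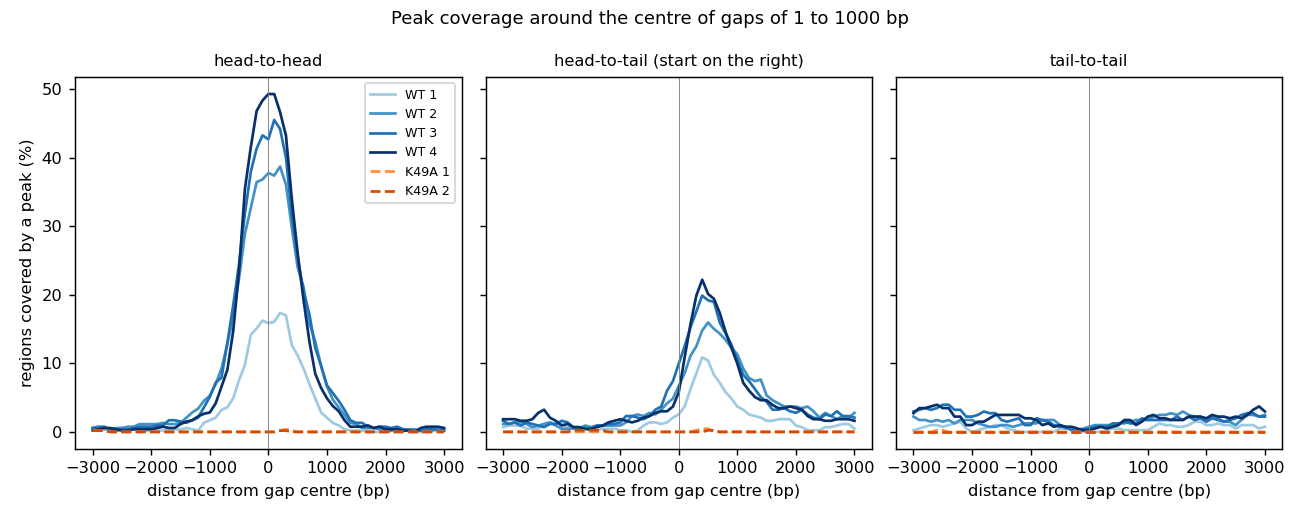
Percentage of regions covered by a peak at each distance in bp from the gap centre, for gaps of 1 to 1000 bp, with WT libraries as solid and K49A libraries as dashed lines. The WT curves form a single hump over head-to-head gaps, a smaller hump on the side of the gene start in head-to-tail regions, and none over tail-to-tail gaps.

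Most called regions held a single peak, in at least 94.1% of the calls of each arrangement in every WT library. In head-to-head regions with a call, the peaks covered the outer start of both genes in 32.7, 52.1, 53.4 and 60.5% of cases in WT 1 to WT 4 and of just 1 gene in 14.03 to 21.15%. One peak spanned the whole gap in 33.2, 51.8, 53.6 and 60.5%. The strongest peak of a called region had a median width of 406, 695, 703 and 676 bp there, against medians of 404, 557, 542 and 366 bp over the whole lists. In called head-to-tail regions the border at the gene start lay under a peak in 44.4, 48.3, 54.9 and 50.6% and the border at the finish in 9.72, 14.4, 16.9 and 7.69%. The authors' fold over local background ranks peaks within one list. Its medians were 2.95 to 3.23 in head-to-head and 2.84 to 3.26 in head-to-tail regions of the WT libraries. Over the whole lists of WT 1 to WT 4 the medians were 3.16, 2.93, 2.94 and 2.85. The called peaks of both arrangements were thus near the typical height of their lists.

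CpG content was higher in called than in uncalled head-to-head and head-to-tail regions. Just 2 tail-to-tail regions had a promoter sequence, and they were not compared. RefSeq promoters of 300 bp (250 bp before and 50 bp after a start) were matched to 1014 regions, with a median of 21 CpG where all 20084 autosomal coding promoters had 14. The median was 23.5 in head-to-head and 16 in head-to-tail regions. Head-to-head regions called in no WT library had a median of 17 CpG (69 regions, quartiles 9.5 and 20), and those called in all 4 had 28 (156 regions, quartiles 22.5 and 35.6). In head-to-tail regions the medians were 10 (147 regions) and 24 (43 regions).

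**Figure D4:**
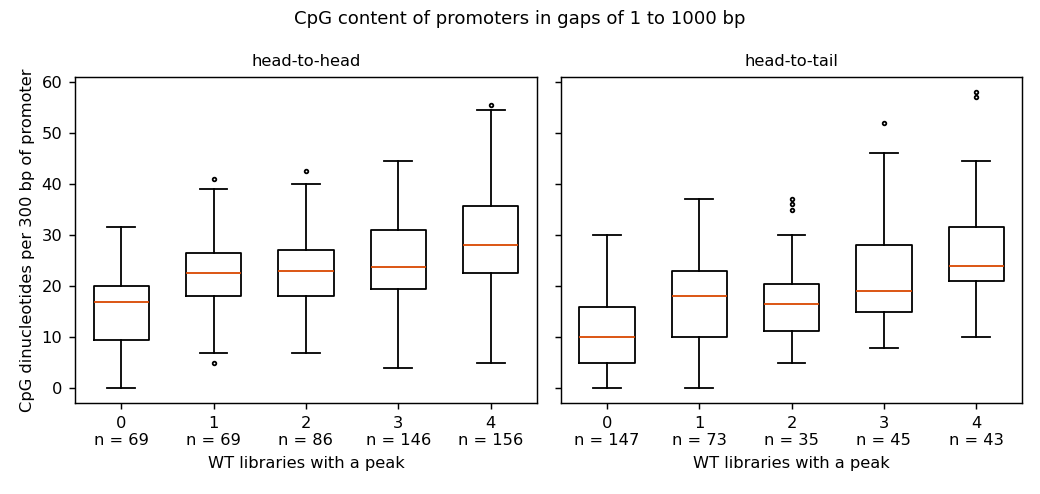
CpG dinucleotides per 300 bp of promoter (vertical axis) for regions called in 0 to 4 WT libraries (horizontal axis). Boxes give the quartiles with the median in orange, whiskers reach to 1.5 times the box height and circles are single regions. The medians of regions called in no WT and in all 4 WT libraries are 17 and 28 in head-to-head and 10 and 24 in head-to-tail regions.

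Regions above the median of 21 CpG were called more often than the rest by 28.3, 32.1, 32.5 and 37.9 percentage points in WT 1 to WT 4 and by 0.02 and -0.18 in K49A (exact sign-flip permutation test, two-sided p = 0.0938, adjusted p = 0.158). The contrast was also there inside head-to-head regions, with 48.6 against 23.6%, 72.8 against 50.8%, 78.6 against 55.8% and 86.5 against 53.8% in WT 1 to WT 4, and with differences of -0.20 and -0.50 points in K49A (exact sign-flip permutation test over 6 libraries, two-sided p = 0.125, adjusted p = 0.158). In head-to-tail regions it was 41 against 10.3%, 50 against 23.05%, 58 against 30.5% and 68 against 32.1% (exact sign-flip permutation test over 6 libraries, two-sided p = 0.0312, adjusted p = 0.135). That p also needs the positive K49A differences of 0.588 and 1 points, which rest on 1 CpG-rich against 1 CpG-poor region called in K49A 1 and 1 against 0 in K49A 2. Head-to-head regions with at least 30 CpG (134 regions) had a peak in 57.5, 79.9, 91.0 and 93.3%, and those with fewer than 5 (12 regions) in 0, 8.33, 8.33 and 8.33%. Head-to-tail regions with at least 30 CpG (26 regions) had a peak in 69.2, 61.5, 84.6 and 96.2%, so at this CpG content neither arrangement was the higher in all 4 WT libraries. Those with fewer than 5 (41 regions) had 0, 4.88, 9.76 and 2.44%.

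Short motifs in the promoters differed along with CpG. Letters were searched on both strands of the 300 bp. GGGCGG, the core of a GC box, was in 78.4% of the 407 promoters of regions called in all 4 WT libraries, in 43.3% of the 323 promoters of regions called in no WT library and in 47.0% of all 20084. The NRF1 motif, a pair of short GC repeats with any 2 bases between them, was in 24.6, 9.60 and 8.83%, and CCGGAAG, an ETS core, in 31.0, 15.8 and 11.9%. CCAAT went the other way, with 34.6, 55.1 and 38.1%, as did TATAAA with 4.91, 13.0 and 12.7%. The palindromic ZBTB33 motif was in 2.21, 0.929 and 0.672%, and CG itself in 100, 98.8 and 95.6%. Over all 1614 promoters of short-gap regions, GGGCGG was in 65.1%, the NRF1 motif in 17.5% and CCGGAAG in 26.3%. CCAAT was in 44.2% of them, TATAAA in 6.26%, the ZBTB33 motif in 2.17% and CG in 99.6%. All of these motifs but CCAAT and TATAAA hold CG themselves, and a match is only a match of letters. The sets pool the arrangements. Of the 229 regions with a promoter sequence called in all 4 WT libraries, 156 were head-to-head, and of the 247 called in none, 69 were. Whether the motif shares differ within an arrangement was not tested. The 2 promoters of a close head-to-head pair can share bases, so 1 match can count in both. In the gaps printed above, Atp5h/Kctd2 held CCAAT, the NRF1 motif and CCGGAAG, Tent4a/A930018O16Rik held GGGCGG, Brca1/Nbr1 held CCAAT, and Duox2/Duoxa2 held GGGCGG and TATAAA.

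Of the 1915 regions, 955 were called in no WT library, 232 in 1, 193 in 2, 280 in 3 and 255 in all 4. In all 4 WT and neither K49A library there were 251 (13.1%), against 18.2% of all pairs, and without WT 1 the number was 457. By arrangement, all 4 WT libraries called 156 of 529 head-to-head regions or 29.5% (36.9% of all head-to-head pairs), 46 of 432 head-to-tail regions or 10.6% (17.7% of all such pairs) and 1 of 403 tail-to-tail regions or 0.248% (0.619% of all such pairs). No library called 954 regions, or 49.8%, against 51.9% of all pairs. The WT lists overlapped unevenly. Of the 362 regions of WT 1, 82.6 to 89.0% were also called in each other WT library, whereas WT 1 held 42.3 to 46% of the regions of the others.

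The 8 strongest regions of the WT-only class were ranked by the mean percentile of their best peak within the 4 lists, which ran from 90.4 to 94.1. Gnl3/Pbrm1 is a head-to-head pair with a gap of 6 bp on chromosome 14 (31019132 to 31019137). Gnl3 encodes a nucleolar GTPase and Pbrm1 a subunit of the PBAF chromatin remodeller. The authors' folds there were 5.05, 3.70, 3.28 and 4.42 in WT 1 to WT 4, and the peaks of WT 3 and WT 4 spanned the gap while those of WT 1 and WT 2 began inside Pbrm1. Atp5h/Kctd2 (chromosome 11) had folds of 4.57, 3.13, 4.10 and 3.55, and the peaks of all but WT 3 covered both starts. Pafah1b2/Sik3 (chromosome 9) had 4.16, 3.56, 3.44 and 4.21, and lay mostly on the Sik3 side, with WT 4 reaching over both genes. The remaining pairs were Fbxo45/Wdr53 (3.86 ± 0.0948), Git2/Ankrd13a (4.07 ± 0.727), Zswim7/Ttc19 (4.09 ± 0.796), Pacs1/Sf3b2 (3.73 ± 0.231) and Epb41l4b/LOC108168956 (3.81 ± 0.966; fold, SD, n = 4 each). Fbxo45 is part of a ubiquitin ligase, Git2 a regulator of Arf GTPases, Ttc19 an assembly factor of the respiratory chain and Sf3b2 a splicing factor. All 8 had at least 32.5 CpG per 300 bp of promoter.

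**Figure D5:**
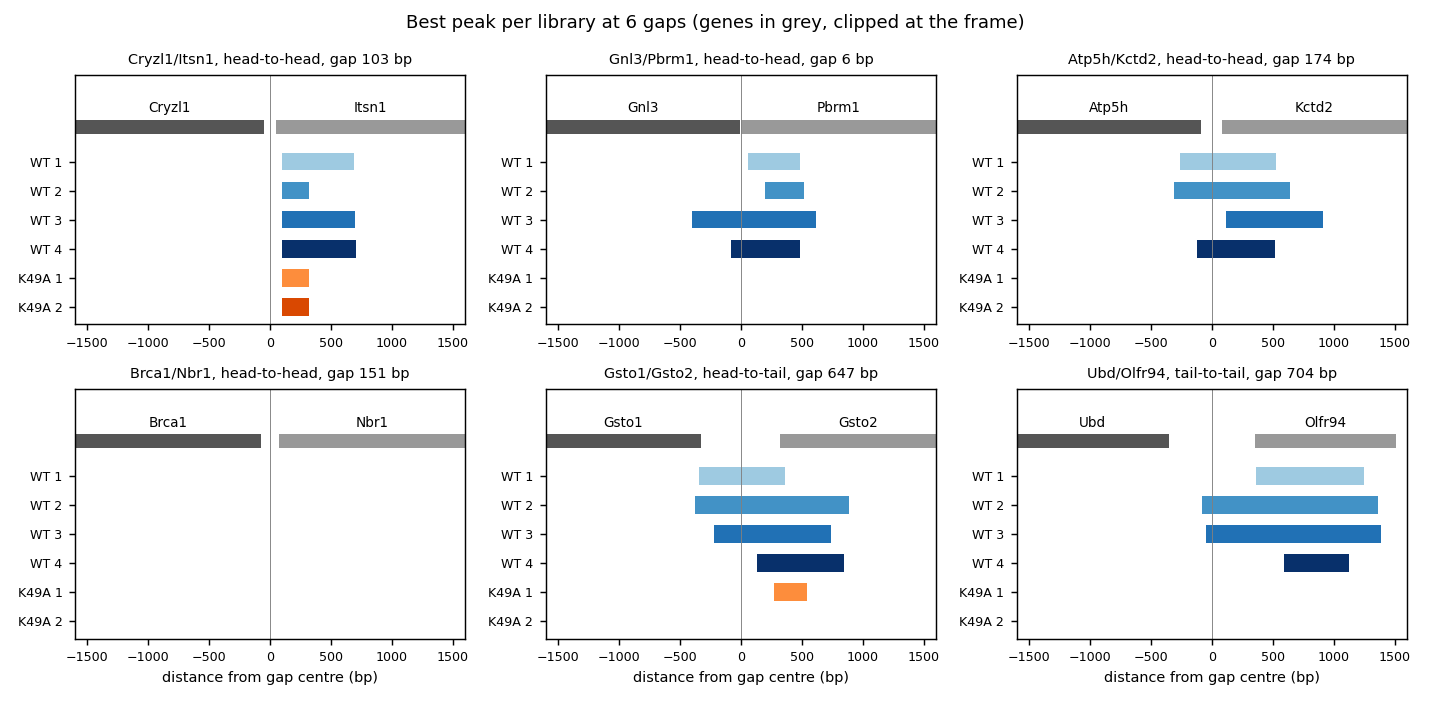
Best peak of each library (coloured bars) against distance in bp from the gap centre at 6 named gaps, with the 2 genes in grey at the top. At Cryzl1/Itsn1 all 6 libraries have a peak with the same left border, at Gsto1/Gsto2 one K49A library joins the 4 WT libraries, and Brca1/Nbr1 has none.

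K49A sperm had a peak in 6 short-gap regions in at least 1 library, 0.313% of them, against 0.417% of all pairs, and in just 1 region in both libraries. That one, Cryzl1/Itsn1, was also the only region called in all 6 libraries (0.0749% of all pairs were). It is a head-to-head pair with a gap of 103 bp on chromosome 16 (91729207 to 91729309). Cryzl1 encodes an enzyme-like protein related to quinone oxidoreductases and Itsn1 an endocytic scaffold. Its peaks began at 91729360, inside Itsn1, in every library and ended at 91729578 in WT 2 and both K49A libraries, a width of 219 bp. In WT 1, WT 3 and WT 4 they were 589, 598 and 606 bp wide. Folds were 11.8, 19.1, 10.8 and 9.52 in WT and 11.2 and 14.6 in K49A, far above the other named regions, and each is relative to the background of its own library.

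The remaining K49A calls had folds of 3.18 to 3.91 and fell in 1 library each. At Gsto1/Gsto2, genes of omega-class glutathione transferases on chromosome 19, K49A 1 had a peak of 272 bp over the start of Gsto2 (fold 3.91), overlapping WT peaks of 706 to 1266 bp (folds 2.81 to 3.23). At Qk/Gm46608 on chromosome 17, K49A 2 had 218 bp (fold 3.42) inside Qk, which encodes an RNA-binding protein, where WT peaks were 988 to 1755 bp wide (folds 3.58 to 5.13). At Gm40365/Gm36327 on chromosome 6, K49A 2 had 286 bp (fold 3.63) within the peaks of all 4 WT libraries (fold 4.92 ± 1.08, SD, n = 4). Iqch/Aagab on chromosome 9 had 239 bp in K49A 1 (fold 3.18, −log10 q of 1.17), beyond the WT 1 and WT 3 peaks and in part over that of WT 4. Cilp2/Yjefn3 on chromosome 8 was called in K49A 1 (fold 3.66) and in no WT library. In the shared regions the K49A peaks were narrower than every WT peak, except at Cryzl1/Itsn1, where WT 2 had the same width, and at Iqch/Aagab, where WT 1 had 223 bp. Median widths over the whole lists were also lower in K49A, 301 and 294 bp against 366 to 557 bp in WT.

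Well-known close pairs ranged from a peak in all 4 WT libraries to none. K49A called none of them, and of all short-gap regions it called 0.313% in at least 1 library. Atm/Npat, a DNA damage kinase and an activator of histone genes that share a 60 bp head-to-head gap on chromosome 9, had a peak in every WT library (fold 3.06 ± 0.137, SD, n = 4) and in neither K49A library. Mcm4/Prkdc, a replicative helicase subunit and a DNA repair kinase 43 bp apart on chromosome 16, was called in WT 1, WT 3 and WT 4 (folds 3.09, 2.84 and 2.71). Psmb9/Tap1 on chromosome 17, both of antigen processing, was called in WT 2, WT 3 and WT 4 (2.91, 2.49 and 2.72), and Mrps12/Sars2 on chromosome 7, both of mitochondrial translation, in WT 1, WT 2 and WT 3 (3.66, 2.83 and 2.41). Pdcd10/Serpini1 on chromosome 3 was called in WT 4 alone (3.22). Brca1/Nbr1 and Prm3/Prm2 had no peak in any library. Prm2 encodes protamine 2 and the Prm3/Prm2 gap of 462 bp on chromosome 16 lies in the cluster that also holds the protamine 1 gene. Its promoter had 4 CpG per 300 bp.

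The narrowest gaps did not share a state either. Among head-to-head pairs 1 bp apart, 1110032A03Rik/Fdxacb1 was called in all 4 WT libraries (fold 2.70 ± 0.250, SD, n = 4) and Zfp944/Zfp758 in WT 3 alone (4.11). The best WT 3 peak at 1110032A03Rik/Fdxacb1 did not overlap those of the other WT libraries. Of the head-to-tail pairs 2 bp apart, Mcoln1/Pnpla6, with an ion channel of lysosomes, was called in 2 WT libraries, and Apoe/Tomm40, with the apolipoprotein E gene, in none. The tail-to-tail pairs Ints14/Hacd3 and Spsb3/Eme2, 1 bp apart, were called in none.

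Gene lists with housekeeping roles are described by their counts alone. Over all short-gap regions, 13.3% had a call in each WT library and 49.9% in none, and the share called in none was 13.0% of head-to-head, 50.7% of head-to-tail and 92.8% of tail-to-tail regions. Of 47 regions with a respiratory chain or ATP synthase gene, 8 had a call in each WT library and 17 in none. Of those 8, 7 were among the 23 head-to-head regions of the list, where 2 had no WT call, and 6 of its 8 tail-to-tail regions had none. Beside Atp5h/Kctd2, its strongest members were Cox15/Cutc (fold 3.60 ± 0.388) and Stxbp4/Cox11 (3.43 ± 0.373; SD, n = 4 each), where Cox15 and Cox11 are assembly factors of cytochrome oxidase. Mitochondrial ribosomal protein genes had 34 regions, with 2 called in all 4 WT libraries, 21 in 1 to 3 and 11 in none. Mrpl47/Ndufb5 (3.12 ± 0.294) and Mrpl13/Mtbp (3.13 ± 0.200; SD, n = 4 each) were the 2, and Mrpl40/Hira, with the gene of a histone H3.3 chaperone, was called in 3 (3.17 ± 0.187, SD, n = 3). Cytosolic ribosomal protein genes had 29 regions, with 5 called in all 4 WT libraries and 13 in none. Examples were Med22/Rpl7a (3.41 ± 0.271), Rpl36al/Mgat2 (3.31 ± 0.219) and Zwilch/Rpl4 (3.57 ± 0.760; SD, n = 4 each). At Zwilch/Rpl4 the best peaks of WT 1 to WT 3 lay inside Zwilch and that of WT 4 inside Rpl4.

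RNA polymerase and general transcription factor genes had 28 regions, with 7 called in all 4 WT libraries (25%) and 6 in none. All 5 of the tail-to-tail regions among them were in the second group and 1 of the 18 head-to-head regions was. Rad17/Taf9 on chromosome 13, a checkpoint clamp loader subunit and a TFIID subunit, had folds of 3.24, 3.28, 3.50 and 3.07. DNA repair and replication genes had 33 regions, with 7 called in all 4 WT libraries and 12 in none. Marveld2/Rad17 (3.59 ± 0.567) and Rad9b/Vps29 (3.50 ± 0.0800; SD, n = 4 each) led them. Proteasome genes had 3 of 19, among them Psme2/Rnf31 (3.41 ± 0.331) and Tap1/Psmb8 (2.74 ± 0.154), and tRNA synthetase genes 3 of 14, among them Lyrm4/Fars2 (3.50 ± 0.294) and Kars/Terf2ip (3.19 ± 0.121; SD, n = 4 each). Zinc finger genes had 9 of 47, led by Zfp654/Cggbp1 (3.39 ± 0.543, SD, n = 4), and none of their 12 tail-to-tail regions was called in WT. At Tap1/Psmb8 the best peak of WT 4 did not overlap those of the other WT libraries. Over all pairs, 18.5% were called in all 4 WT libraries.

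Lists of germ cell genes and of histone genes were counted in the same way, beside the 49.9% of all short-gap regions with no WT call. Spermatid and sperm genes had 34 regions, of which 1 was called in all 4 WT libraries and 22 in none, and 17 of the 34 were head-to-tail and 6 head-to-head. Spata1/Gng5 was the 1 (fold 3.11 ± 0.414, SD, n = 4), and Mob3a/Izumo4 (3.33 ± 0.252) and Cfap69/Steap2 (2.78 ± 0.0544; SD, n = 3 each) were called in 3. Meiotic and early germ cell genes had 6 regions, with none called in all 4 and 5 called in no WT library. The exception was called in 3 WT libraries. Canonical histone genes had 25 regions, with 13 called in no WT library, near the 49.9% over all short-gap regions, and 2 called in all 4. The 2 were the head-to-head pairs H2ac15/H2bc15 (3.08 ± 0.369) and H2bc1/H2ac1 (2.71 ± 0.129; SD, n = 4 each) on chromosome 13, whose promoters had 5 and 7.5 CpG per 300 bp. Their best peaks did not lie at 1 place across the WT libraries. By arrangement, 5 of the 10 head-to-head and 7 of the 10 head-to-tail histone regions had no WT call. Over all short-gap regions the shares with none were 13.0 and 50.7%. This difference was not tested. Histone gene copies are alike in sequence, and how reads were shared among them is not stated.

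Developmental transcription factors had 13 regions, of which Rhno1/Foxm1 was called in all 4 WT libraries (4.46 ± 1.36, SD, n = 4), 7 in 1 to 3 and 5 in none. Olfactory and vomeronasal receptor genes had 5 regions, with 4 in none and Ubd/Olfr94 in all 4 WT libraries (3.31 ± 0.248, SD, n = 4). That pair on chromosome 17 was the only tail-to-tail region called in all 4, and its peaks lay over Olfr94 more than over the gap. Leukocyte and epididymal epithelium genes, markers of cells that a sperm sample could hold, had 3 regions, with 2 in none and Fbxo38/Spink10 in 1 WT library. Clustered protocadherin genes had no short gap. No list had a region called in K49A, where just 6 of all 1915 short-gap regions (0.313%) had a call in at least 1 library.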

How the data were processed

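MNase-seq peak lists of 4 WT and 2 K49A libraries were used, grouped by sample title. The submitters' processing notes name FastQC, BWA, SAMtools, Picard, MACS2 and mm10. Settings and any input control are not stated in the sources used here. The deposited lists give each peak's fold over background as a ratio, its −log10 p, its −log10 q and a score, all the authors' values. The lowest −log10 q was 1.00 to 1.04 in each list and the lowest −log10 p was 3.32 to 3.75 in WT and 4.55 and 4.73 in K49A. No read counts were used, so depth limits precision by an unknown amount.

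Genes were the 20661 coding genes of chromosomes 1 to 19 in a RefSeq table for GRCm38.p6, the assembly named mm10. Strand came from the RefSeq promoter table for 16456 of them, and for 9840 of these a listed start equals the outer border of the gene. Coordinates are 1-based. A gap is the number of bases between the genes. CpG is the mean over the promoters whose start lies in the region.

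Groups were compared with exact permutation tests over libraries, two-sided, and regions within libraries with exact sign-flip permutation tests (smallest p 0.0312 over 6 libraries). Benjamini-Hochberg adjustment covered 13 tests, of which 8 were planned and 5 added after seeing the data, and none reached an adjusted p of 0.05. In the closing section the threshold is an unadjusted p of 0.05. No test was made over single regions. Scripts ran in Python 3.11.15 with numpy 2.4.6, scipy 1.17.1 and pandas 2.3.3 and were tested on simulated windows. Named regions followed a rule: the 8 strongest WT-only regions, up to 12 called in K49A, listed known pairs, up to 3 per gene list, the 2 narrowest gaps per arrangement, and the gaps printed as sequence. Some of these are not reported here. Alternatives tried were a −log10 p of at least 5, equal list lengths, other gap limits (500 and 2000 bp), a 250 bp flank, peak midpoints, pairs without predicted genes, the replicate block and leaving out each library. Members and lists were chosen with earlier results of these data known.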

Additional observations from a re-analysis of the deposited data

Results flagged for a closer look

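WT 1 stood apart from the other WT libraries in 3 measures, each with a gap to the next library that is large for the range of 4 values. Its short-gap share was below its wide-gap share (a difference of -5.47, others -0.47 to -0.33 percentage points), its log2 ratio of the 2 shares was -0.37 (others -0.02 to -0.01), and its head-to-head surplus over head-to-tail regions was 22.7 points (others 37.0 to 38.0). WT 1 had the shortest WT list, with 11313 peaks. WT 4, the longest list, stood apart in the share of its peaks that touch a short-gap region, 2.77% against 3.21 to 3.24% in the others. Chance flags about 1 in 20 such groups, and these measures share the same lists.

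The surplus of head-to-head over head-to-tail regions was positive in all 4 WT and negative in both K49A libraries, with a K49A mean of -0.0637 points. The difference between genotypes in this surplus was not tested, and the K49A values rest on 2 head-to-head and 2 head-to-tail regions in K49A 1 and on 1 of each in K49A 2.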

How the results depend on the processing

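The head-to-head surplus over tail-to-tail regions kept its direction and an unadjusted p of 0.0312 under all 7 settings that kept all 6 libraries. With 5 libraries the sign-flip test cannot go below 0.0625. Leaving out 1 library at a time gave 33.3 to 47.3 points for that surplus, 19.3 to 27.0 for head-to-head over head-to-tail, 18.5 to 26.2 for CpG-rich over CpG-poor, -1.36 to -0.28 for short over wide gaps, 29.7 to 36.6 for WT over K49A in the share called, 0.38 to 0.55 for the log2 excess, 7.297 to 9.65 for gap bases, 2.54 to 2.74 for the share of peaks, and 252 to 457 regions in the WT-only class (457 without WT 1).

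The difference between short and wide gaps did not hold its direction. It was 1.68 for gaps up to 500 bp, 0.53 by peak midpoints and 2.14 within head-to-head pairs, and -0.59 with a flank of 250 bp, -4.45 within head-to-tail and -0.39 within tail-to-tail pairs (exact sign-flip p = 0.25, 0.531, 0.344, 0.688, 0.125 and 0.156). The comparisons within an arrangement were chosen after seeing the data. The log2 excess was -0.54 with 700 peaks a list and -0.0032 with a 250 bp flank. The WT-only class held 54 regions when a −log10 p of 5 or more was asked for and 0 with 700 peaks a list. CpG-rich regions led by 22.4 points with a 250 bp flank and by 20.5 within head-to-tail regions (exact sign-flip p = 0.0312 for both), and by 17.0 within head-to-head regions (exact sign-flip p = 0.125). Why these values moved was not tested.

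Titles give K49A the replicate numbers 1 and 2. With the replicate block the WT minus K49A differences were 26.2 points for the share called, 0.37 for the log2 excess, 6.15 for gap bases and 2.74 for the share of peaks (exact p = 0.5, the smallest possible with 2 pairs). Over all pairs of genes the deviations of same-numbered libraries had correlations of 0.0071 and 0.00018. With 2 K49A libraries the deviations from their mean mirror each other, and just 78 of 18699 pairs had a K49A call. This check therefore cannot tell whether the numbers pair the libraries. Pairing by file name gave 29.1 points for the share called.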

Other observations

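Some regions stood outside the general relation of calls to CpG content, and were chosen after their values were seen. Toe1/Mutyh on chromosome 4, a head-to-head pair with a gap of 34 bp that joins an RNA-processing nuclease gene and a DNA repair glycosylase gene, was the only head-to-head region with at least 30 CpG (31.5 per 300 bp) and no peak in any library. At the other end, Obsl1/Inha on chromosome 1 (8 CpG, gap 590 bp) was called in all 4 WT libraries with fewer than 10 CpG, as were the 2 histone pairs named in the report. Inha encodes the alpha subunit of inhibin, a hormone of the gonads.

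Tail-to-tail regions called in exactly 3 WT libraries numbered 5 of 403 (1.24%), near the 1.15% of tail-to-tail pairs with a gap above 1000 bp. K49A called none of the 403. The 5 were Trim54/Ucn, Hrc/Ppfia3, Selenom/Smtn, Mink1/Chrne and Ltb4r1/Adcy4, with gaps of 362, 152, 170, 400 and 563 bp. WT 2 and WT 3 called all 5, WT 4 called all but Selenom/Smtn, and WT 1 called Selenom/Smtn alone. Among chromosomes, the share of short-gap regions called in all 4 WT libraries ran from 8.40% on chromosome 4 (10 of 119) to 24.6% on chromosome 16 (14 of 57). Chromosome 7 had the most regions, with 217, and also the most adjacent pairs, with 1873.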
